A study of Homo sapiens with 7 samples.

Results

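Dual-specificity phosphatases (DUSPs) remove phosphate from tyrosine and from serine or threonine, and many of them switch off mitogen-activated protein (MAP) kinases by dephosphorylating both residues of the activation loop. The inducible nuclear enzymes and the cytoplasmic ERK-selective enzymes are themselves products of MAP kinase signalling and form feedback loops on it, other members act mainly on the stress kinases JNK and p38, and the small atypical enzymes lack the domain that docks the kinase. In liver and in hepatocellular carcinoma these enzymes are studied as brakes on growth factor and stress signalling.

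Here 10 DUSP genes were followed (DUSP1, DUSP3, DUSP4, DUSP5, DUSP6, DUSP7, DUSP10, DUSP14, DUSP16 and DUSP22), taken by symbol from the 58174 genes of the deposited table. They were selected on the FPKM of siImp1 against siC in these same libraries, so their differences are given as a description without p-values. Huh-7 is an established hepatocellular carcinoma line, and its total RNA was sequenced 72 h after transfection with control siRNA (siC, 3 libraries) or with an siRNA pool directed against IGF2BP1 (siImp1, 4 libraries). Imp1 is an older name of IGF2BP1, an oncofetal RNA-binding protein that protects mRNAs from degradation. All groups are of 1 cell line with a transient knockdown, and the labels do not say whether replicates were separate cultures, so the spread between libraries may be technical.

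Levels are given in FPKM, fragments per kilobase of gene length, scaled to a normalized library size, as deposited. This size was 0.964 to 0.984 of the reads on genes in the siC libraries and 1.01 to 1.03 in the siImp1 libraries. SiImp1 levels therefore stand slightly lower against siC than with scaling to the reads alone. IGF2BP1 itself averaged 82.2 ± 2.03 FPKM in the 3 siC libraries and 15.8 ± 0.583 FPKM in the 4 siImp1 libraries (mean ± SD), which left 19.2% of the control level. Libraries held between 12826550 and 33212205 reads on genes. The hepatic markers examined were all above 1 FPKM on average (12 of 12, with AFP and ALB among them), whereas 10 of 13 markers of leukocytes, endothelium and fibroblasts were below it. The leukocyte markers PTPRC, CD3E and CD68 did not exceed 0.0285 FPKM in any library, and the 3 markers above 1 FPKM on average were LYZ, from 113 to 162 FPKM, with PECAM1 and COL1A2 at no more than 3.29 FPKM in any library. SiC replicate 3 stood apart from its group. The SD over genes of its log2 distance from the other siC libraries was 0.699, against 0.417 to 0.518 for the other libraries, and across genes its Spearman correlation with the GC content of the transcript was -0.427. This correlation was 0.435 and 0.304 for siC replicates 1 and 2, and is a description over genes, which are not replicates. Distances within a group are tied to one another, so a skew of replicate 3 alone would give replicates 1 and 2 the opposite sign. The siC group has fewer libraries than siImp1, so the SDs of the 2 groups are not strictly comparable.

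The study placed IGF2BP1 in the protection of mRNAs from microRNAs, and named let-7, miR-122 and miR-22 among the microRNAs of interest. It reported less let-7-5p and more miR-122-5p in Huh-7 than in the ovarian cancer line ES-2. It also described the protection as largely independent of the sequence of the microRNA target site. The mature sequences of these microRNAs (RefSeq, GRCh38.p14) are shown because the seed, bases 2 to 8 in capitals, sets which 3'UTRs can pair with them.
hsa-let-7a-5p: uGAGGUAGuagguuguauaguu
hsa-miR-122-5p: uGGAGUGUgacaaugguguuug
hsa-miR-22-3p: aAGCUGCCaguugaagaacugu

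A match to the let-7 seed (CTACCTC) was found in the 3'UTR of 2 of the 10 DUSP transcripts, DUSP16 and DUSP22. The share was 9.77% of 19538 protein-coding 3'UTRs of the GENCODE canonical transcripts, and 11.2% of the 10622 that belong to genes tested. The miR-122 match (ACACTCC) was present in 1 of 10, DUSP4, against 8.08% and 8.38% of these sets. The miR-22 match (GGCAGCT) was in 2 of 10, DUSP10 with 2 sites and DUSP16 with 1, against 13.9% and 15.6%. The sites are printed with the match in capitals, in the sense of the transcript, for those of DUSP16, DUSP22 and DUSP10.
DUSP16, let-7, chr12:12475959-12475988, minus strand: gggaggctaacgagtCTACCTCcctctttg
DUSP22, let-7, chr6:350074-350103, plus strand: gataattgatctgagCTACCTCattgaatg
DUSP10, miR-22, chr1:221701899-221701928, minus strand: caaagagaagatcagGGCAGCTtaagtggt
DUSP10, miR-22, chr1:221701685-221701714, minus strand: aaacaagttagagctGGCAGCTgaatgata
DUSP16, miR-22, chr12:12475358-12475387, minus strand: tatggaatcggtcctGGCAGCTgaacatag

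The 3'UTR of DUSP3, 3484 bases long, held none of these 3 matches. A match is a property of the letters and not evidence of binding, and its absence says nothing of other microRNAs. The 3'UTRs of the 10 genes had a median length of 1957.5 bases, against 1337 bases over the 10622 protein-coding genes tested that have one.

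Among the 10 transcripts, DUSP3 differed most between the groups. DUSP3 (ENSG00000108861, GRCh38 chromosome 17, 43766125 to 43778977, minus strand, 3 exons) encodes a small atypical phosphatase that acts on ERK and JNK. It was at 39.6, 39.6 and 37.3 FPKM in siC replicates 1 to 3 and at 16.7, 15.3, 16.8 and 16.7 FPKM in siImp1 replicates 1 to 4. The groups were far apart, and the highest siImp1 library lay below the lowest siC library. It averaged 38.8 ± 1.37 FPKM in the 3 siC libraries and 16.4 ± 0.731 FPKM in the 4 siImp1 libraries (mean ± SD), or 42.1% of siC. The difference of siImp1 minus siC was -1.24 on the log2(FPKM + 0.1) scale (SE 0.0610). Of the 14839 genes tested, 160 had a difference at least as low, DUSP3 included. In bulk RNA, a lower level in every cell and a loss from part of the cells cannot be told apart. At least 1084 reads lay on DUSP3 in each library, and 1.34% of its 50-base transcript windows also occur in transcripts of other genes.

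The promoter of DUSP3 is shown because this transcript differed most and because the study followed the transcription factor SRF, which binds the CArG box. It spans chr17:43778928-43779227 (RefSeq, GRCh38.p14, minus strand, 300 bases that include the start site), with matches to the GC box GGGCGG on either strand in capitals.
DUSP3: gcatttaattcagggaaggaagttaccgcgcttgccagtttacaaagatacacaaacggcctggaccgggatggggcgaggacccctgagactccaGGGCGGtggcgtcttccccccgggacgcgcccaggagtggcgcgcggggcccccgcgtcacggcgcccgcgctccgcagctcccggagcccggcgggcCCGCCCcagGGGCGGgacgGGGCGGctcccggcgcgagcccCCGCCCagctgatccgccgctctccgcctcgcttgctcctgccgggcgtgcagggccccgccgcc

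This window held 5 GC boxes and had a GC content of 75%. RefSeq promoters were matched for 8 of the 10 genes (9 windows, since DUSP10 has a pair, with DUSP4 and DUSP5 unmatched). A CArG box was found on either strand in 0 of these 9 windows and in 1.29% of 35116 promoters. The GC box was in 8 of 9 windows against 45.0% of all promoters. The cAMP response element TGACGTCA was in 1 window, that of DUSP1, against 1.85%, and TATAAA likewise in that of DUSP1 alone, against 11.5%. Each pattern was searched on both strands, and a CArG box can contain TATAAA.

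DUSP4 was the other transcript with a wide gap. DUSP4 (ENSG00000120875, chromosome 8, 29333064 to 29350684, minus strand, 4 exons) encodes an inducible nuclear phosphatase of ERK and JNK. It was at 5.45, 5.92 and 6.22 FPKM in siC and at 3.10, 3.22, 3.15 and 3.01 FPKM in siImp1. The siImp1 libraries lay close together and all below siC. The means were 5.86 ± 0.385 FPKM (SD, n = 3) and 3.12 ± 0.0856 FPKM (SD, n = 4), or 53.2% of siC, a log2 difference of -0.89 (SE 0.0731). Between 284 and 1377 reads lay on DUSP4 per library.

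**Figure D1:**
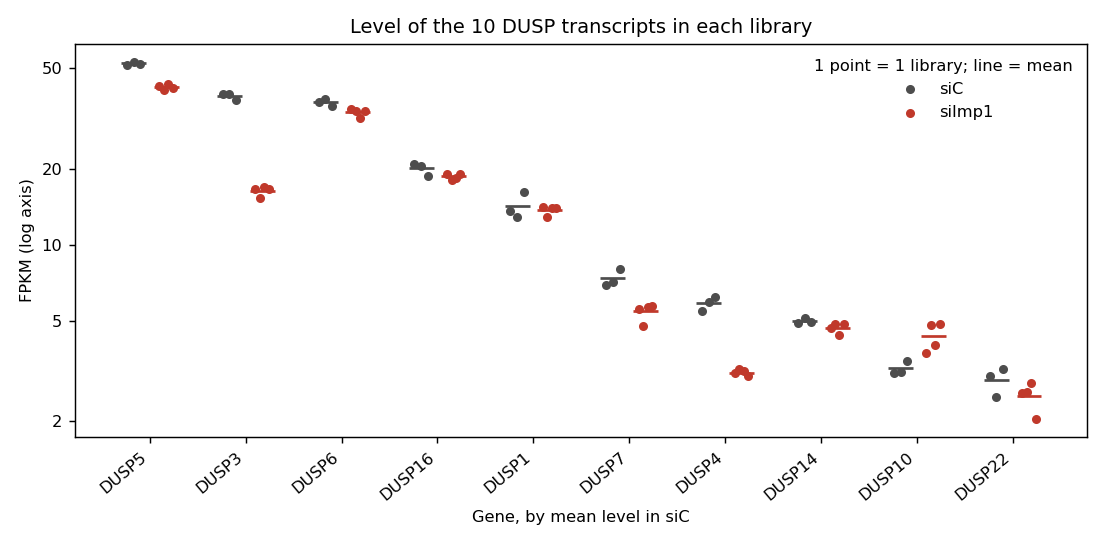
Level of each of the 10 DUSP transcripts in FPKM (log axis), with 1 point per library, siC in grey and siImp1 in red, and a line at the group mean. The 4 siImp1 values of DUSP3 (15.3 to 16.8 FPKM) and of DUSP4 (3.01 to 3.22 FPKM) lie well below those of siC, and those of DUSP1 and DUSP22 intermingle with siC.

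The remaining nuclear enzymes differed less. DUSP5 (ENSG00000138166, chromosome 10, 110497907 to 110511533, plus strand), an ERK-selective phosphatase, was the most abundant of the 10 in both groups. It was at 51.6, 52.9 and 52.0 FPKM in siC and at 42.6, 40.8, 43.3 and 41.7 FPKM in siImp1. The groups did not overlap, and the mean was 52.2 ± 0.682 FPKM (SD, n = 3) against 42.1 ± 1.08 FPKM (SD, n = 4), or 80.7% of siC (log2 difference -0.31, SE 0.0517).

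DUSP1 (ENSG00000120129, chromosome 5, 172768096 to 172771195, minus strand) is an immediate early gene whose product acts on p38, JNK and ERK. It was at 13.7, 12.9 and 16.1 FPKM in siC and at 14.1, 12.9, 14.0 and 13.9 FPKM in siImp1, where the groups overlapped. The log2 difference was -0.048 (SE 0.0879), and it was 0.045 without siC replicate 3, the highest of the 7 libraries. A long non-coding RNA on the other strand spans the whole of DUSP1, and it held between 0 and 3 reads per library. Antisense RNAs over DUSP6 and DUSP16 held from 4 to 17 and from 0 to 6 reads. The study's methods name a directional library kit, but whether counting used strand is not stated. How far reads of these partners were kept apart is therefore not known.

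The cytoplasmic ERK phosphatases are DUSP6 and DUSP7. DUSP6 (ENSG00000139318, chromosome 12, 89347235 to 89352501, minus strand), a classical read-out of ERK activity, was at 36.8, 37.7 and 35.3 FPKM in siC and at 34.5, 33.8, 31.8 and 33.7 FPKM in siImp1. The groups just failed to overlap, with a mean at 91.4% of siC (log2 difference -0.13, SE 0.0568). DUSP7 (ENSG00000164086, chromosome 3, 52048919 to 52056571, minus strand) was at 6.92, 7.15 and 8.03 FPKM in siC and at 5.58, 4.78, 5.69 and 5.73 FPKM in siImp1. All siImp1 values were below siC, with a mean at 73.9% of it (log2 difference -0.43, SE 0.0921).

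DUSP10 and DUSP16 encode phosphatases directed mainly at JNK and p38. DUSP10 (ENSG00000143507, chromosome 1, 221701424 to 221742089, minus strand) was the only one of the 10 with a higher mean in siImp1. It was at 3.11, 3.15 and 3.47 FPKM in siC and at 3.73, 4.81, 4.01 and 4.84 FPKM in siImp1. The groups did not overlap, but siImp1 was scattered, with replicates 2 and 4 above replicates 1 and 3. The log2 difference was 0.41 (SE 0.115), with 139 to 294 reads per library. DUSP16 (ENSG00000111266, chromosome 12, 12473282 to 12562863, minus strand) was at 20.9, 20.5 and 18.7 FPKM in siC and at 19.1, 18.03, 18.4 and 19.0 FPKM in siImp1. The groups overlapped through siC replicate 3 (log2 difference -0.10, SE 0.0616).

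Of the atypical enzymes other than DUSP3, neither stood far from siC. DUSP14 (ENSG00000276023, chromosome 17, 37489891 to 37513501, plus strand) was at 4.91, 5.13 and 4.94 FPKM in siC and at 4.70, 4.84, 4.38 and 4.87 FPKM in siImp1, a log2 difference of -0.088 (SE 0.0673) with groups separated by less than the SD of either. DUSP22 (ENSG00000112679, chromosome 6, 291630 to 351355, plus strand), linked to JNK signalling, was at 3.02, 2.50 and 3.22 FPKM in siC and at 2.59, 2.62, 2.84 and 2.05 FPKM in siImp1. The groups of DUSP22 overlapped (log2 difference -0.20, SE 0.143).

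The whole table was fitted with limma, and a gene was called at an adjusted p of at most 0.01. By this rule 2 of the 10 were called lower, DUSP3 and DUSP4, where 2.28% of the 14839 genes tested were called lower. The count called higher was 0 of 10, against 1.65% of all genes (limma), and at an unadjusted p of under 0.05 there were 4 lower and 1 higher, against 14.8% and 11.0% of all genes. Groups that did not overlap were found for 6 of the 10 in the lower direction, against 15.1% of genes tested, and for 1 in the higher direction, against 11.9%. Since the genes were selected with this contrast in view, nothing is read from these counts. The median log2 difference of the 10 was -0.17, against -0.017 over all genes tested.

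**Figure D2:**
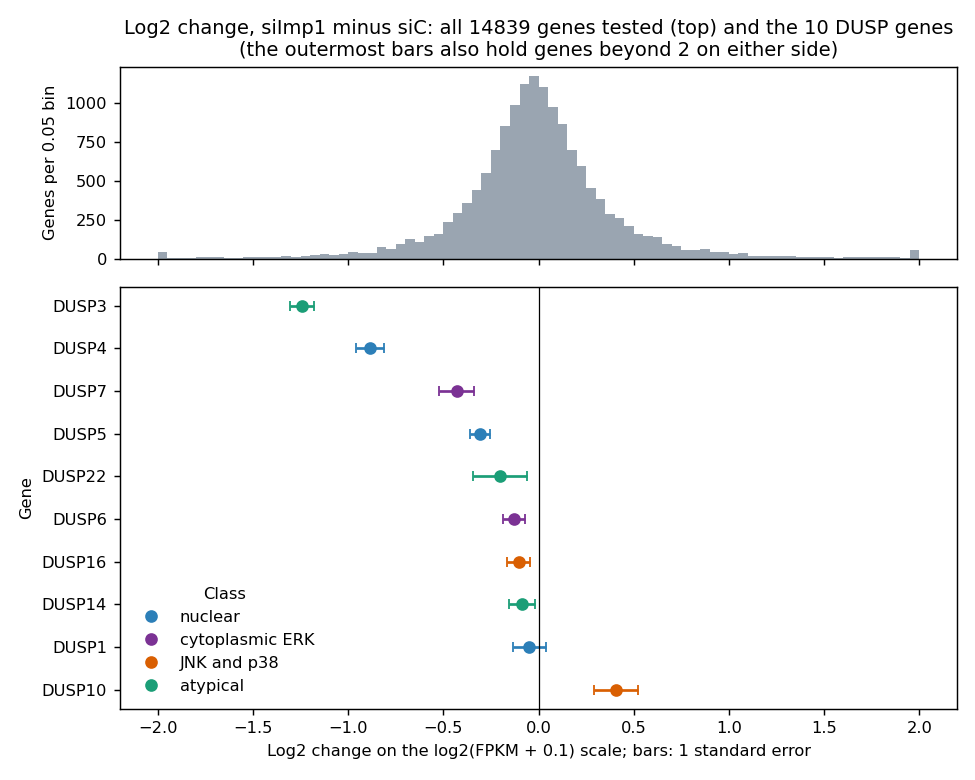
Log2 difference of siImp1 minus siC on the log2(FPKM + 0.1) scale, as a histogram over all 14839 genes tested (top, genes per bin of 0.05) and for each DUSP gene with 1 standard error (bottom, coloured by class). DUSP3 (-1.24) and DUSP4 (-0.89) lie in the lower tail of the histogram, DUSP10 (0.41) is the single gene to the right of 0.

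The order of the 10 levels differed between the groups mainly in the places of DUSP3 and DUSP4. In siC, DUSP5 was followed by DUSP3 and DUSP6, which did not differ beyond their spread, then by DUSP16, DUSP1, DUSP7, DUSP4 and DUSP14. DUSP10 and DUSP22 were lowest and overlapped. In siImp1, DUSP3 stood behind DUSP5, DUSP6 and DUSP16, and DUSP4 stood second to last, ahead of DUSP22. DUSP7 overlapped with DUSP14, and DUSP14 with DUSP10, in siImp1.

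Summed over the 10 genes, the level was 186 ± 1.15 FPKM in the 3 siC libraries and 144 ± 2.43 FPKM in the 4 siImp1 libraries (mean ± SD), or 77.5% of siC. The atypical class, DUSP3 with DUSP14 and DUSP22, went from 46.7 ± 1.16 FPKM (SD, n = 3) to 23.6 ± 0.606 FPKM (SD, n = 4). Most of this lay in DUSP3, at 42.1% of siC, with DUSP14 at 94.1% and DUSP22 at 86.6%. DUSP3 made up 20.9% of the sum over the 10 genes in siC and 11.3% in siImp1. The nuclear class (DUSP1, DUSP4 and DUSP5) was at 81.6% of siC, the cytoplasmic ERK class at 88.5%, and the JNK and p38 class at 98.7%. These classes hold only genes of the 10. The cytoplasmic ERK class leaves out DUSP9, described below, which averaged 291 FPKM in siC and 228 FPKM in siImp1 (78.5% of siC). Without DUSP3 the sum of the other 9 was at 86.9% of siC.

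**Figure D3:**
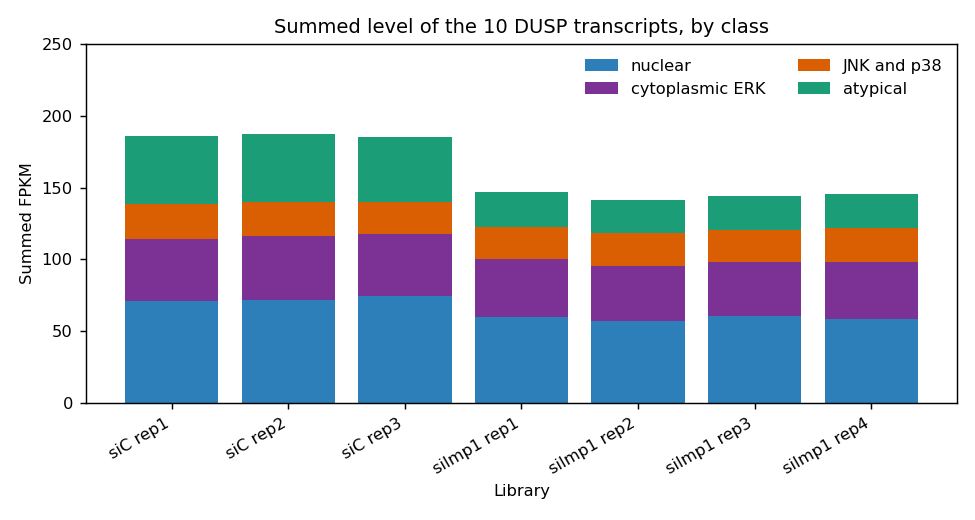
Summed FPKM of the 10 DUSP transcripts in each library, stacked by class. The 3 siC libraries reach from 185 to 187 FPKM and the 4 siImp1 libraries from 141 to 147 FPKM. The atypical class (green) differs most in height, mostly through DUSP3.

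Transcripts with a profile like that of DUSP3 were sought among 10671 protein-coding genes by the Pearson correlation of log2(FPKM + 0.1) over the 7 libraries. The 5 highest were CDV3 (r = 0.9998), TMEM41A (0.9995), PDXK (0.9990), NIPA2 (0.9990) and ZNRF1 (0.9987), and 429 genes had an r above 0.95. All values come from the same 7 libraries in 2 groups, and these correlations are a description with no test. Their differences were smaller than that of DUSP3. CDV3 was at 77.2 ± 1.55 FPKM in the 3 siC libraries and 48.3 ± 1.06 FPKM in the 4 siImp1 libraries (mean ± SD), a log2 difference of -0.67, and ZNRF1 had a log2 difference of -0.23.

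The rest of the DUSP family was examined as a list of 17 genes, of which 10 were tested and 7 had a mean under 1 FPKM. This list and those below were chosen with earlier results of these data known, so adjusted p-values of their genes are a description. DUSP9, a cytoplasmic ERK phosphatase, was by far the most abundant DUSP transcript, at 296, 292 and 284 FPKM in siC and at 225, 199, 247 and 243 FPKM in siImp1. It made up 55.0% of the summed level of all 27 DUSP genes listed in siC, and 53.2% in siImp1. All siImp1 values of DUSP9 were below siC, but the difference did not pass the threshold (log2 difference -0.35, limma adjusted p = 0.0515).

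Of the 10 genes of this list that were tested, 1 passed the threshold, where 3.93% of all genes tested passed. This was DUSP26, a small atypical phosphatase. It was at 0.714, 0.654 and 0.602 FPKM in siC and at 1.48, 1.77, 2.39 and 2.18 FPKM in siImp1, from 17 to 68 reads (log2 difference 1.42, limma adjusted p = 0.00717). Its siC mean was below 1 FPKM, so DUSP26 entered the test only through its level in siImp1, and its adjusted p rests on that filter. With 1 library left out at a time, DUSP26 passed in 1 of 7 fits, that without siC replicate 3. DUSP12 and DUSP2 had log2 differences of 0.23 and -0.32 (limma adjusted p = 0.0566 and 0.471). DUSP23, DUSP27 and DUPD1 were listed at 0 in all 7 libraries. Over the 10 genes tested, 5 had a lower and 5 a higher mean in siImp1, with a median log2 difference of -0.041.

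The kinases these phosphatases act on, with RAS, RAF and MAP2K genes above them, formed a list of 26 genes, 21 of them tested. MAPK8, which encodes JNK1, and MAPK14, which encodes p38 alpha, fell. MAPK8 was at 7.39, 7.44 and 9.16 FPKM in siC and at 5.22, 4.97, 5.03 and 5.08 FPKM in siImp1 (log2 difference -0.64, limma adjusted p = 0.00624). MAPK14 was at 15.4, 15.6 and 16.5 FPKM in siC and at 12.0, 12.3, 11.4 and 12.2 FPKM in siImp1 (log2 difference -0.40, limma adjusted p = 0.00708). Both passed without siC replicate 3 but in none of the other 6 fits that left out 1 library. MAPK3, which encodes ERK1, was at 7.33, 7.17 and 3.50 FPKM in siC and from 5.14 to 7.63 FPKM in siImp1. Its log2 difference was 0.16 (limma adjusted p = 0.780), with siC replicate 3 far below the other siC libraries. NRAS had a log2 difference of -0.39 (limma adjusted p = 0.0192). Of the 21 genes tested, 2 were called lower and 0 higher, against 2.28% and 1.65% of all genes tested. The median log2 difference of the list was -0.10.

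Transcripts commonly used as output of ERK signalling formed a list of 20 genes, 15 of them tested. LIF, which encodes a cytokine of the interleukin-6 family, rose from 1.31 ± 0.213 FPKM (SD, n = 3) to 4.55 ± 0.661 FPKM (SD, n = 4), a log2 difference of 1.72 (limma adjusted p = 0.00118). LIF passed in all 7 fits that left out 1 library, but these fits share libraries and the list was chosen with earlier results known. No other gene of the list passed. JUNB, at 7.83, 6.90 and 5.07 FPKM in siC and from 11.6 to 13.7 FPKM in siImp1, came closest (log2 difference 0.92, limma adjusted p = 0.0103), and ETV4 had the lowest difference (-0.69, limma adjusted p = 0.0433) with siC replicate 3 at 31.5 FPKM against 47.5 and 47.6 FPKM. PHLDA1 had a log2 difference of 0.40 (limma adjusted p = 0.0670). ETV5 and CCND1 were lower in siImp1 (log2 difference -0.25 and -0.26, limma adjusted p = 0.0422 and 0.0454). The list held 9 genes with a lower and 6 with a higher mean, and its median was -0.14. Groups did not overlap for 5 genes in the lower and 3 in the higher direction, against 15.1% and 11.9% of all genes tested. Without siC replicate 3, 5 genes of the ERK output list and 5 of the kinase list passed, where 10.3% of all genes tested passed in that fit against 3.93% with all libraries.

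Phosphatases of MAP kinases outside the DUSP family (9 genes, 6 tested) gave 0 calls in limma, where 3.93% of all genes tested were called. At an unadjusted p of under 0.05 there were 1 lower and 1 higher, against 14.8% and 11.0% of all genes tested. Their log2 differences lay between -0.18 (PPM1D) and 0.19 (PPP2R1A), with PPP2CB and PPP2CA, the catalytic subunits of PP2A, at -0.10 and -0.071 (limma adjusted p = 0.122, 0.0627, 0.681 and 0.721).

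**Figure D4:**
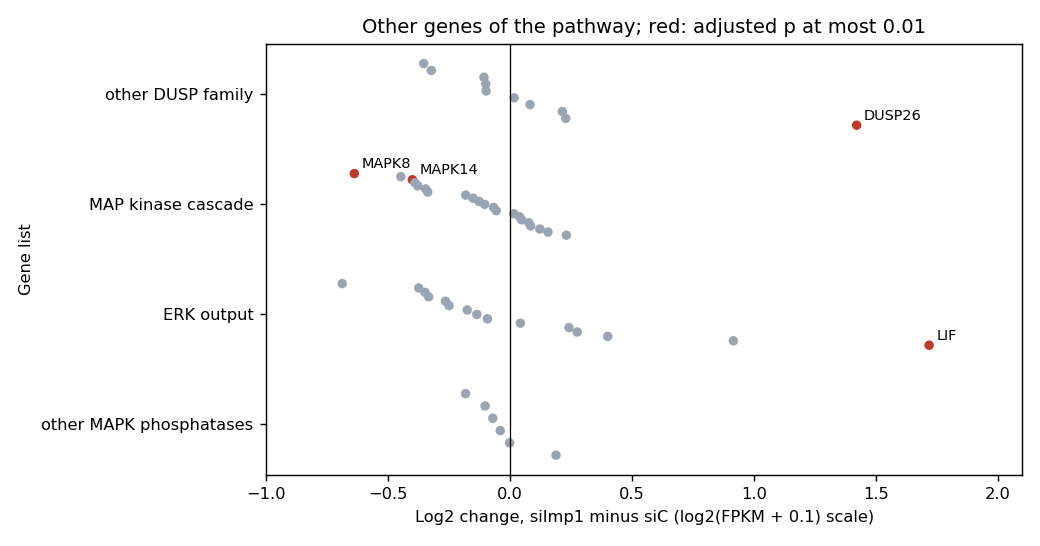
Log2 difference of siImp1 minus siC for the tested genes of 4 lists of the MAP kinase pathway, with 1 point per gene and red for a limma adjusted p of at most 0.01. DUSP26 (1.42) and LIF (1.72) are the points called higher and MAPK8 (-0.64) and MAPK14 (-0.40) those called lower.

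The differences of the 10 DUSP genes were compared across fits that each left out 1 library. DUSP3 ranged from -1.27 to -1.21 and DUSP4 from -0.94 to -0.84. DUSP5 ranged from -0.32 to -0.29. DUSP7 lay between -0.47 and -0.37, and DUSP10 between 0.35 and 0.47. These ranges describe the libraries on which the genes were selected. DUSP1 was the only one of the 10 to change sign among these fits.

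**Figure D5:**
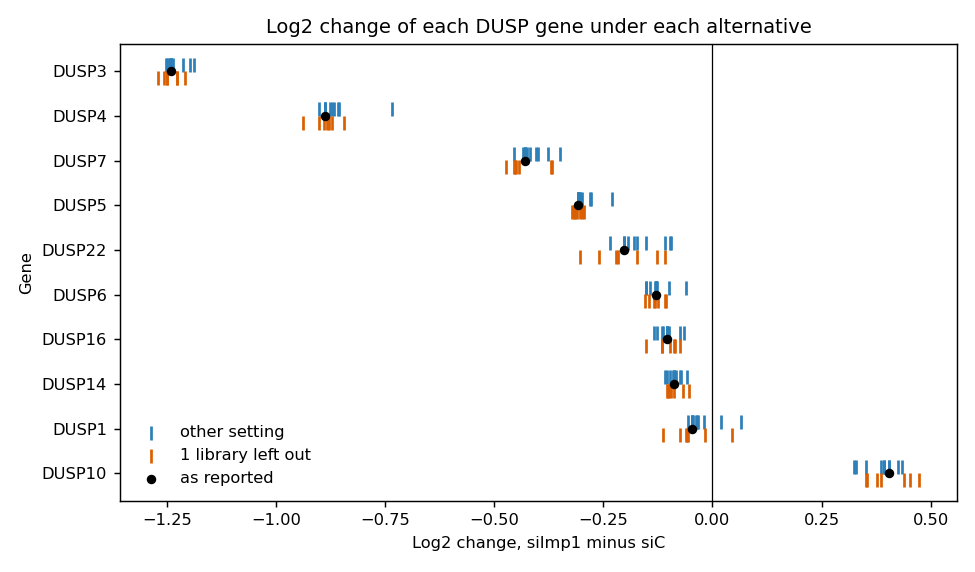
Log2 difference of each DUSP gene as reported (black), with 1 library left out (orange) and under the other settings of the analysis (blue). The marks of DUSP3 lie between -1.27 and -1.19, and those of DUSP1 lie on both sides of 0.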

How the data were processed

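The authors clipped reads with Cutadapt (1.14), aligned them to GRCh38 with HISAT2 (2.1.0), counted them per gene with featureCounts (1.5.3) and normalized by TMM in edgeR (3.18.1), per the labels and the study's methods. The study's methods name a directional library kit for total RNA, but whether counting used strand is not given in the sources used here. The deposited table holds 1 FPKM value per gene and library, and the authors' log2 fold changes, p-values and FDR, which were not used. FPKM times gene length gave whole reads within 0.02 for 100% of values above 0, which gave the depth of each library.

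The 14839 genes averaging 1 FPKM or more were tested on log2(FPKM + 0.1) by limma (3.58.1, under R 4.3.3, variance trend on), two-sided, Benjamini-Hochberg adjusted, at 0.01, without covariates. This scale understates changes of low genes. The fit was tested on simulated data. Members and lists were chosen with earlier results of these data known. Named are the 10 genes, IGF2BP1, from each list the genes called and the 4 largest differences (some others were added after their values were seen, and a gene the rule names is not reported here), and the 5 genes most like DUSP3. Sites and promoters come from GENCODE v44 and RefSeq. Alternatives changed pseudocount, filter, scaling, weights, threshold, GC trend, pairing and libraries.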

Additional observations from a re-analysis of the deposited data

Results flagged for a closer look

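In the siImp1 group of 4 libraries, replicate 2 lay below the other 3 for DUSP1, DUSP3 and DUSP7, where the other 3 were close together. It was at 12.9 FPKM against 13.9 to 14.1 FPKM for DUSP1, and at 15.3 FPKM against 16.7 to 16.8 FPKM for DUSP3. For DUSP7 it was at 4.78 FPKM against 5.58 to 5.73 FPKM. Its gap to the nearest library was 0.877, 0.881 and 0.843 of the distance between the lowest and highest library, past the 95% limit of Dixon's test. Of 11 genes examined in this way 3 exceeded it. The limit is passed by about 1 in 20 independent sets by chance, but all 11 genes share the same 4 libraries. They are not independent, and the DUSP genes were selected on these values, so nothing is read from the count. The log2 distance of replicate 2 from its group correlated with GC content across genes (Spearman's rho = -0.386, against 0.0017 to 0.264 in the other 3), and the part of this in the 3 values was not tested. Without siImp1 replicate 2 the log2 difference of DUSP3 was -1.21.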

How the results depend on the processing

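The differences of DUSP3 (from -1.27 to -1.19 over 19 alternatives) and DUSP4 (from -0.94 to -0.73 over 18) kept their sign under each. DUSP1 reversed with quantile normalization (0.020), array weights (0.066) and without siC replicate 3 (0.045). Whether the replicate numbers pair the libraries was not settled. Deviations of same-numbered libraries from their group means correlated at -0.026, -0.12 and -0.11 for numbers 1 to 3. No library correlated best with the library of its own number, and the highest value was 0.20, between siC replicate 3 and siImp1 replicate 2. With so few libraries, and siC replicate 3 apart from its group, these values cannot decide whether same-numbered libraries shared a culture or batch. With the replicate block, alone or with GC trends removed, 0 genes were called in the whole table and in each list, and IGF2BP1 (log2 -2.36 and -2.35) was no longer called. Number 4 has no siC library, so siImp1 replicate 4 adds nothing to the blocked difference, which equals that without it. Counts called, against 2 of the 10 DUSP genes, 1 other DUSP gene, 2 kinases, 1 ERK output gene and 0 other phosphatases, became 4, 3, 5, 9 and 1 with array weights, where 18.5% of all genes were called against 3.93% as reported. At a threshold of 0.05, which 11.5% of all genes passed, there were 4 of the 10 and 5 output genes. A mean of at least 5 FPKM, which leaves out DUSP4 and DUSP26, left 6 of the 10 and 5 other DUSP genes to test. It gave 1 and 0 calls, where 5.89% of all genes tested were called. Without a filter (1.03% of all genes called) there were 0 other DUSP genes and 0 kinases. With quantile normalization (3.63%) there were 0 and 1, and without the variance trend (3.38%) 1 kinase. Output genes numbered 2 with a pseudocount of 1 (4.08% of all genes called), quantile normalization (3.63%) or voom (5.67%), and 3 with GC trends removed (6.74%). With 1 library left out, counts ran from 2 to 3 of the 10, 0 to 1 other DUSP genes, 0 to 5 kinases and 1 to 5 output genes, in each case highest without siC replicate 3, where 10.3% of all genes were called against 0.869% to 1.31% in the other 6 fits. The cause of these shifts was not tested.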
